A study of Mus musculus with 3 samples.

Results

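Mesangial cells hold the capillary loops of the glomerulus together from within, and pericytes wrap small vessels elsewhere in the kidney. Both are contractile supporting cells that depend on platelet-derived growth factor signalling from the endothelium, carry smooth muscle proteins and secrete matrix and growth factors. The glomerulus also holds podocytes, epithelial cells in which the forkhead transcription factors Foxc1 and Foxc2 have been studied, and the series title places its question there. Foxc1 and Foxc2 share a closely related DNA-binding domain that recognises forkhead motifs.

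The 9 genes described here are Fhl2, Ptn, Cald1, Gata3, Serpine2, Des, Pdgfrb, Itga8 and Acta2. They were chosen by their known expression in mesangial cells and pericytes, with their counts of Foxc1 and Foxc2 peaks from earlier work on these lists in view. Every peak whose summit lay in the RefSeq gene span (GRCm38) or within 50 kb of either end was taken for a gene. This gave 26 Foxc1 peaks and 2 Foxc2 peaks at the 9 genes, of 5213 and 2881 peaks in the lists. The 9 genes stand among 21887 genes that RefSeq lists as protein-coding on the autosomes, X and Y. Since the members were chosen on these counts, the counts are a description and were not tested.

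The lists come from chromatin immunoprecipitation followed by sequencing (ChIP-seq) on glomeruli that were drawn from the kidney cortex of C57BL/6 mice, 8 weeks old, by means of magnetic beads. No genotype or treatment other than the strain is given, and each group is 1 library: Foxc1 (antibody D8A6), Foxc2 (antibody AF6989) and input DNA, of which the last was not analysed here. Whole glomeruli mix mesangial, podocyte, endothelial and other cells, so binding in few cells and weak binding in many cannot be told apart. Transcript levels were not part of these data, so neither the glomerular origin nor the cell type of a gene was checked against expression. Replicate libraries were not analysed here, so no value has an error, and sequencing depth is unknown because peak lists carry no read counts. Each peak's fold enrichment over local background is the authors' value and ranks peaks only within its own list, where the median was 4.90 for Foxc1 and 3.97 for Foxc2.

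Sequence could be read at 1 place where an antibody's peak for a member met a RefSeq promoter window (250 bases before to 50 after a listed start, GRCm38.p6). It is the only place near Serpine2 with peaks of both antibodies, and the start there belongs to its neighbour Mrpl44, which encodes a protein of the mitochondrial ribosome. The second sequence shown is from Rgs5, a regulator of G-protein signalling widely used as a pericyte marker, which is outside the 9 genes and has a Foxc1 peak at its start. Forkhead letters were searched on both strands as the core TAAACA, and as the longer forms GTAAACA with a leading G and ATAAACA with a leading A, both of which contain the core. Below, the matches are in capitals, and the bases run in the direction of transcription (chr1:79775768-79775917 and chr1:169655251-169655400, both on the plus strand).
Mrpl44: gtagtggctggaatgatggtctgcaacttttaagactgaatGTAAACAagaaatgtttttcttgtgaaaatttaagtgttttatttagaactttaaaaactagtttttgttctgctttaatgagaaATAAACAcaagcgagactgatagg
Rgs5: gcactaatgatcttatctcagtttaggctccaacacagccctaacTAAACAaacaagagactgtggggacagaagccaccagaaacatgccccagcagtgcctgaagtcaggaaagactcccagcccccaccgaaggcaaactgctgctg

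In the Mrpl44 window, counted from its first base, the Foxc1 summit lay at base 41 and the GTAAACA match at bases 42 to 48, directly beside it. The ATAAACA match lay at bases 127 to 133, and the Foxc2 summit at base 204, past both. In the Rgs5 window the Foxc1 summit was at base 41 and the TAAACA match at bases 46 to 51. In both windows shown, a match lay within a few bases of the Foxc1 summit, but Rgs5 was picked after its values were seen. The Foxc2 peak at Mrpl44 covered all 300 bases of the window, so both matches lay under it as well. A single Foxc2 summit cannot show a difference between the antibodies. The Rgs5 peak was weak, with a fold of 3.48 at percentile 6.28 of the Foxc1 list. The window of Pdgfra, also outside the 9 genes, was met by a Foxc1 peak of fold 8.54 and held none of the letters. A match is a description of the letters and not a measured binding site.

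Of the 9 genes, 8 had 10 promoter windows in the table, and no peak of either antibody overlapped any of these 10. The letters TAAACA occurred in 2 of the 10 windows (20%), against 13.4% of all 32817 windows. These were the window at the first start of Cald1 and that of Acta2, shown here as the members whose start carries the letters without a peak (chr6:34598448-34598477, plus strand, and chr19:34255554-34255583, minus strand).
Cald1: gcctgctgactGTAAACAtagggggtatgt
Acta2: gagggcttaggaTGTTTATccccataagca

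The capitals mark GTAAACA in Cald1 and TGTTTAT, the reverse complement of ATAAACA, in Acta2. Among all windows, GTAAACA occurred in 3.65% and ATAAACA in 4.60%. For comparison, TAAACA was present in 31.1% of the 366 windows that a Foxc1 peak overlapped and in 6.53% of the 1471 windows that a Foxc2 peak overlapped. The windows of Fhl2, Ptn, Gata3, Serpine2, Des and Itga8 held none of the letters searched.

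Of the 9 genes, 8 had at least 1 Foxc1 summit, and 2, Serpine2 and Pdgfrb, also had a Foxc2 summit. Among all protein-coding genes, 29.3% had a Foxc1 summit, 23.2% a Foxc2 summit and 12.5% both. A Foxc1 summit without a Foxc2 summit was found at 6 of the 9 genes and at 16.7% of all coding genes. At 5 of them (Fhl2, Ptn, Cald1, Gata3 and Itga8) there were 3 or more Foxc1 summits and no Foxc2 summit, which held for 1.31% of coding genes (287 genes). These shares are printed as background only, because the same counts chose the genes.

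**Figure D1:**
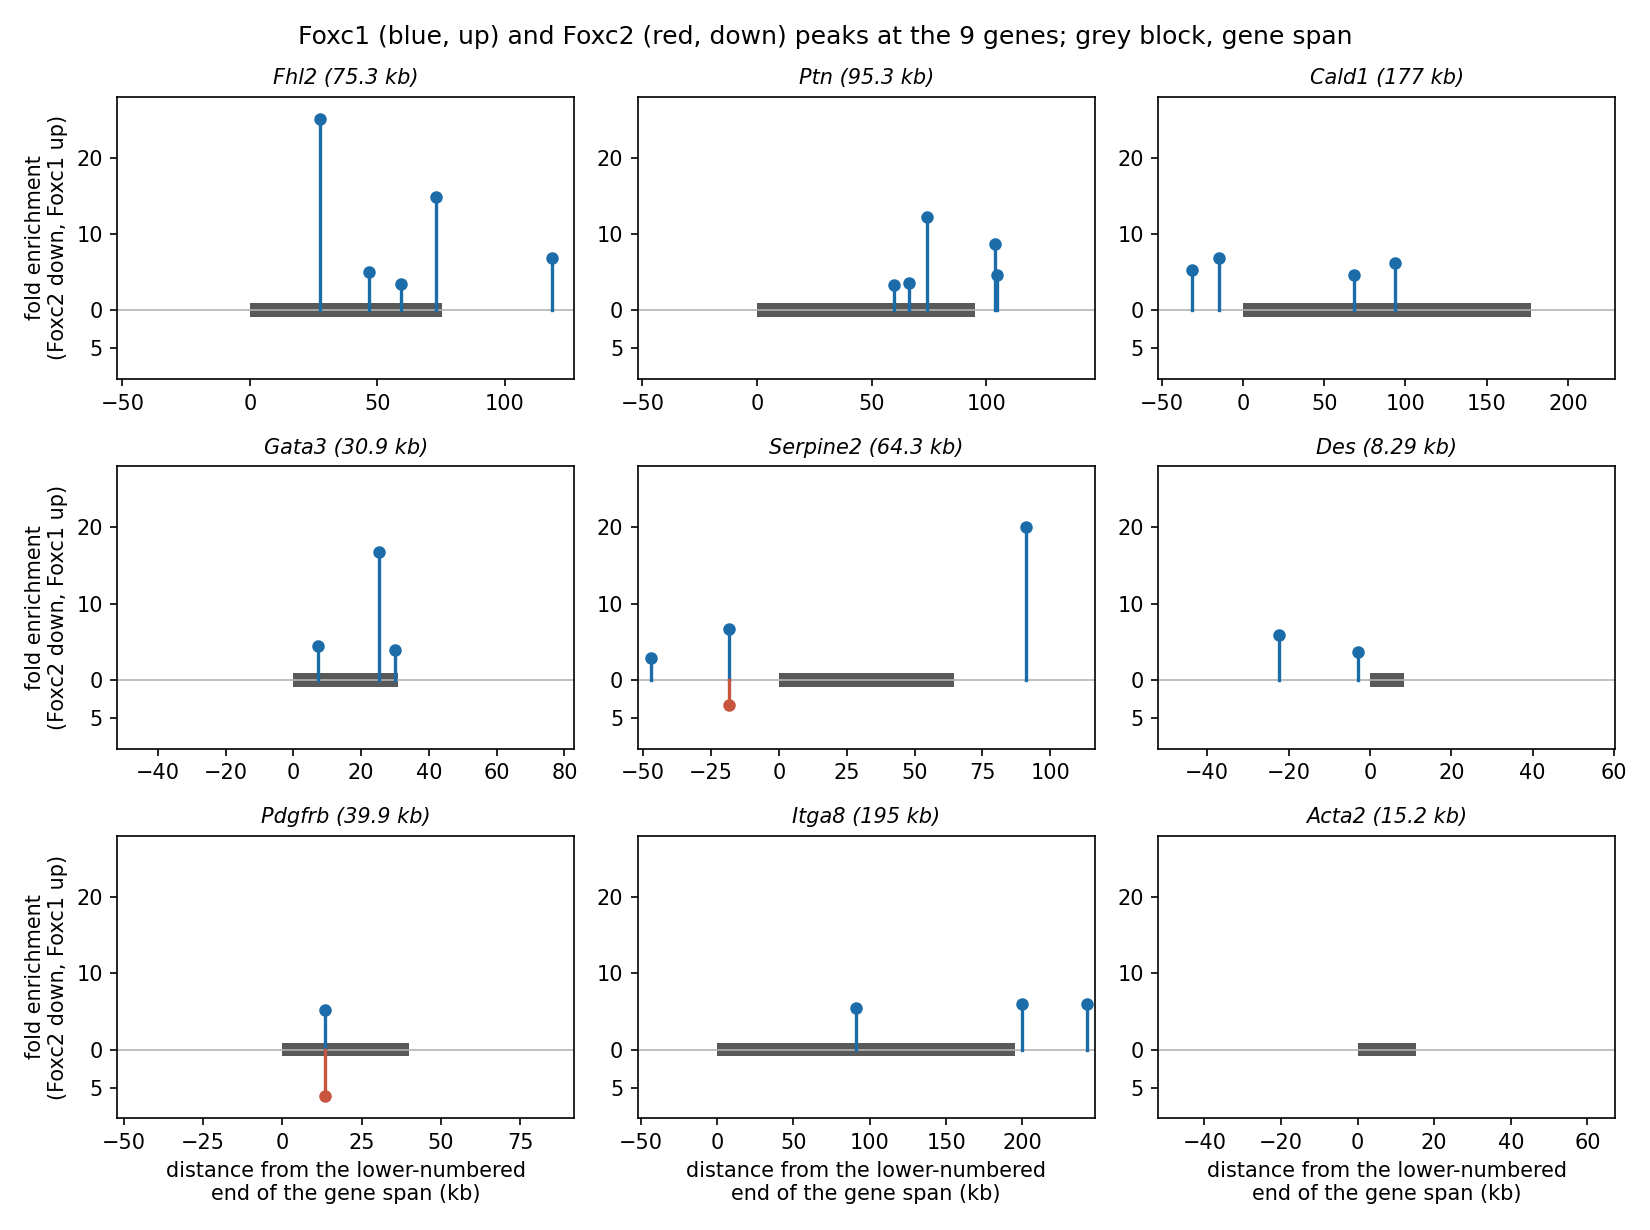
Peaks at each of the 9 genes. The horizontal axis is the distance in kb from the lower-numbered end of the gene span (grey block), and stems give the fold enrichment of Foxc1 peaks upward (blue) and Foxc2 peaks downward (red); Foxc1 stems stand at 8 genes, Foxc2 stems only at Serpine2 and Pdgfrb, and Acta2 has neither.

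Secreted factors and receptors carried 12 of the 26 Foxc1 peaks. Ptn encodes pleiotrophin, a secreted heparin-binding growth factor (chromosome 6, 36714924 to 36810179, minus strand, span 95.3 kb). Inside the gene lay Foxc1 peaks of fold 3.38, 3.64 and 12.2, at 35.7, 28.8 and 21.1 kb downstream of the start. A further pair, of fold 8.70 and 4.60, lay 8.70 and 9.55 kb upstream of the start with summits only 0.853 kb apart. The strongest of the 5 ranked 360th of 5213 by fold and both weak intragenic peaks lay in the lowest 10% of the list. The diacylglycerol kinase gene Dgki was also in reach of 3 of the 5 summits, and Ptn was the nearest coding gene to all 5. The nearest Foxc2 summit was 621 kb away from the span.

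Serpine2 encodes a secreted inhibitor of thrombin and other serine proteases (chromosome 1, 79794317 to 79858665, minus strand). None of its peaks lay inside the gene. A Foxc1 peak of fold 20, rank 109 in the list, stood 26.6 kb upstream of the start (79885021 to 79885571) with no other coding gene in reach. The other 2 Foxc1 peaks, of fold 2.88 and 6.64, lay 47.1 and 18.5 kb beyond the other end, inside the neighbouring gene Wdfy1. The single Foxc2 peak of Serpine2, of fold 3.27, overlapped the latter by 344 bp, with summits 0.163 kb apart. It is the pair at the Mrpl44 start shown above, with summits 0.21 kb (Foxc1) and 0.047 kb (Foxc2) from that gene's end. Both antibodies therefore met near Serpine2 only at a place closer to Wdfy1 and Mrpl44. The Foxc2 peak there was weak, with a minus log10 q of 2.4 where the lowest of the list was 1.33.

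Itga8 encodes the alpha-8 integrin chain, a receptor for nephronectin on mesangial cells (chromosome 2, 12106632 to 12301985, minus strand, span 195 kb). Its 3 Foxc1 peaks were of much the same strength, with folds of 5.38, 6.01 and 6.01. The first lay inside the gene 104 kb downstream of the start, the second 4.63 kb upstream of it and the third 47.2 kb upstream, inside the neighbour Mindy3. A further Foxc1 peak of fold 9.97, 53.3 kb beyond the far end, fell just outside the 50 kb limit. No Foxc2 summit came closer to the span than 605 kb. At Npnt, which encodes the ligand nephronectin, there was a weak Foxc2 peak of fold 3.50 (percentile 23.6 of its list). Its summit lay 0.088 kb upstream of the nearest listed start, just outside the span, and the peak overlapped both promoter windows of Npnt. No Foxc1 summit was in reach of Npnt. Over the whole Foxc2 list, 52.4% of peaks lay within 1 kb of a coding gene end, so such a position was common.

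Pdgfrb encodes the receptor for platelet-derived growth factor B that recruits mesangial cells and pericytes (chromosome 18, 61045127 to 61085067). It had 1 peak of each antibody, at the same place inside the gene, 13.5 kb from its nearer end. In reach of both summits were also 4 other coding genes, Slc6a7, Cdx1, Gm52351 and Csf1r. The Foxc1 peak (61058390 to 61058813) had a fold of 5.22, and the Foxc2 peak (61058429 to 61058820) one of 6.02. They overlapped by 385 bp, with summits 0.044 kb apart. Within their own lists these were a peak of middling rank for Foxc1 (percentile 57.2) and a strong one for Foxc2 (percentile 92.0, rank 220 of 2881). Pdgfrb was the only one of the 9 genes with a Foxc2 peak inside its span. It has no entry in the promoter table.

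Among the nuclear regulators, Fhl2 and Gata3 had 8 Foxc1 peaks and no Foxc2 peak. Fhl2 encodes a LIM-domain adaptor that binds transcription factors and the cytoskeleton of muscle cells (chromosome 1, 43123071 to 43198343, minus strand). Of its 5 peaks, 4 lay inside the gene, with folds of 25, 5.0, 3.43 and 14.9, and 1 of fold 6.80 stood 43.2 kb beyond the end of the span, upstream. The peak of fold 25 (43150167 to 43150718) was the strongest at any of the 9 genes, rank 49 of 5213, and lay 13.5 kb downstream of the nearest listed start. The peak of fold 14.9 (43195977 to 43196556) had its summit 0.544 kb downstream of the other listed start, closer to a start of its own gene than any other peak of the 8 genes with listed starts. The nearest Foxc2 summit was 107 kb from the span. Fhl2 was the nearest coding gene to all 5, and AI597479 was also in reach of the peak of fold 25.

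Gata3 encodes a zinc finger transcription factor needed for early kidney development and present in mesangial cells (chromosome 2, 9857078 to 9887953, minus strand). All 3 Foxc1 peaks were inside its span, which at 30.9 kb is the shortest among the 5 of the 9 genes with 3 or more Foxc1 peaks and no Foxc2 peak. The middle peak (9882167 to 9882697), 3.87 kb upstream of the listed start, had a fold of 16.8 and rank 169. The outer peaks were weak, with folds of 4.38 and 3.96, 14.3 kb downstream and 8.43 kb upstream of the start. The last of these lay 0.925 kb from the end of the span. No Foxc2 summit was nearer than 1610 kb, and no coding gene was nearer to any of the peaks. Taf3 was also in reach of the peaks of fold 16.8 and 3.96.

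The contractile and filament genes Cald1, Des and Acta2 differed among themselves. Cald1 encodes caldesmon, which binds actin and calmodulin in smooth muscle (chromosome 6, 34598495 to 34775469, plus strand, span 177 kb). Its 4 Foxc1 peaks had folds between 4.59 and 6.80, the highest at percentile 76.4 of the list. Of these, 2 lay 31.1 and 14.8 kb upstream of the first start, and 2 lay inside the gene, 42.7 and 17.7 kb upstream of the second start. No other coding gene was in reach of any of the 4 summits. The nearest Foxc2 summit was 2210 kb from the span, farther than for the other 8 genes.

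Des encodes desmin, the intermediate filament of muscle and mesangial cells (chromosome 1, 75360292 to 75368579, plus strand). With a span of 8.29 kb it is the shortest of the 9 genes. Its Foxc1 peaks, of fold 5.85 and 3.64, lay 22.3 and 2.82 kb upstream of the start. The farther one was nearer to Dnpep, at 20.3 kb, and both were also in reach of Speg. Des had no Foxc2 summit within 111 kb. Foxc1 peaks of fold 4.43 near Des and 6.17 near Serpine2, at 68.0 and 75 kb, were left out by the 50 kb limit, whereas those at 47.1 kb from Serpine2 and Itga8 were counted.

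Acta2 encodes smooth muscle alpha-actin, the protein most used to mark activated mesangial cells and contractile pericytes (chromosome 19, 34240336 to 34255585, minus strand). It had no peak of either antibody. The nearest Foxc1 summit was 269 kb from its span and the nearest Foxc2 summit 623 kb. Without read counts it cannot be said how much signal below the calling threshold lay there.

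The 26 Foxc1 peaks at the 9 genes ranged in fold from 2.88 to 25, with a median of 5.62 against 4.90 over the list. With the list divided into 4 equal parts from weakest to strongest fold, 6, 3, 8 and 9 of them fell in these parts. Folds of 10 or more were reached by 5 of the 26 (19.2%), 1 at Ptn, 1 at Gata3, 1 at Serpine2 and 2 at Fhl2, against 10.8% of the list. The strong peaks were thus spread over 4 genes, each with 1 or 2 of them and weaker ones around. The median width was 377 bp, against 332 bp in the list. Of the 2 Foxc2 peaks, that of Serpine2 was in the weakest of such 4 parts of its list and that of Pdgfrb in the strongest.

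**Figure D2:**
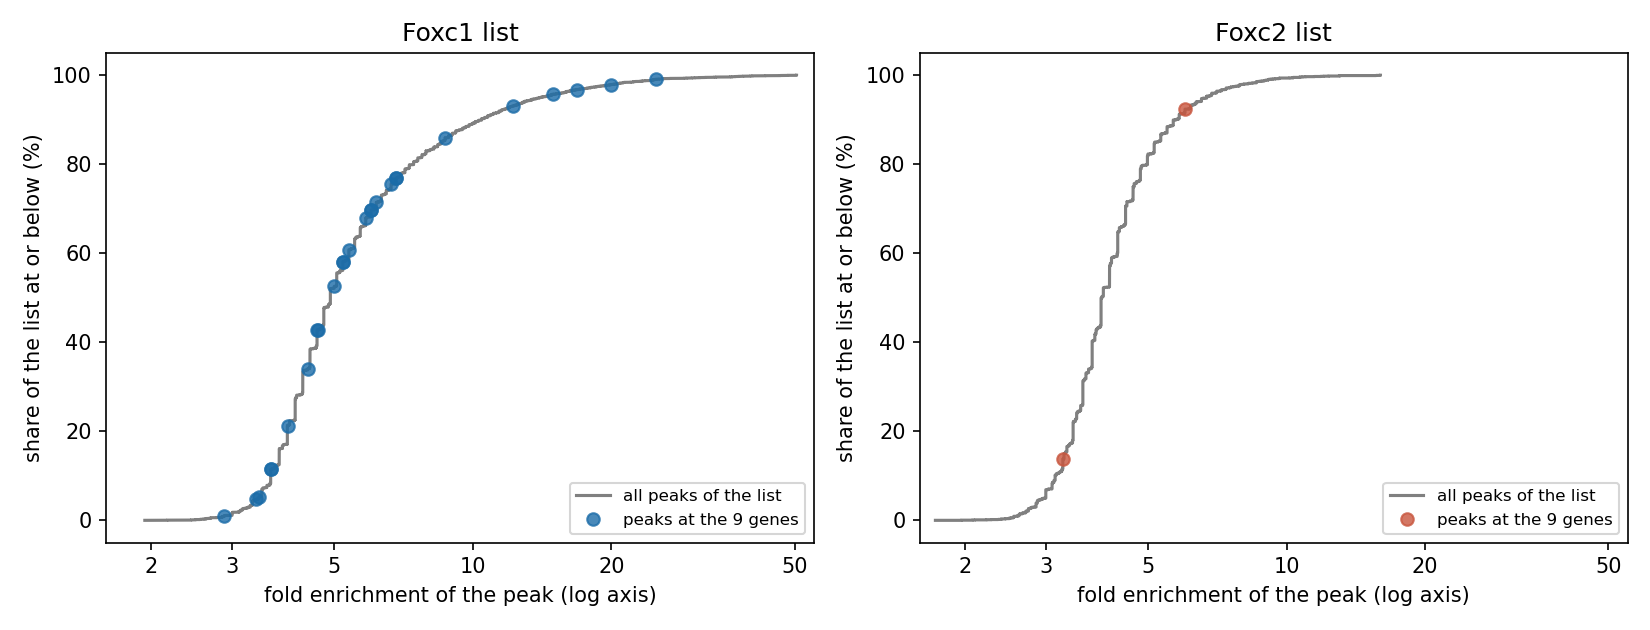
Strength of the peaks within each list. The grey line gives the share of all peaks of the list (vertical axis, percent) at or below a fold enrichment (horizontal log axis), and points mark the 26 Foxc1 peaks (left) and 2 Foxc2 peaks (right) of the 9 genes; the Foxc1 points run along the whole curve, with 5 at a fold of 10 or more.

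Most of these Foxc1 peaks lay away from gene ends, as did most peaks of the whole Foxc1 list. Of the 26, 14 (53.8%) were inside the span of the gene they were counted for. Inside the span of any coding gene lay 17 (65.4%), against 56.4% of all Foxc1 peaks. Within 1 kb of an end of any coding gene lay 2 of them (7.69%), at Gata3 and at Mrpl44, against 10.9% of the list. For 22 of the 26, no coding gene was nearer than the gene they were counted for, and 13 had no other coding gene in reach. The 4 exceptions were both peaks of Serpine2 inside Wdfy1, the peak of Itga8 inside Mindy3 and the peak of Des nearer to Dnpep.

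The antibodies met at 2 of the 26 Foxc1 peaks (7.69%), and over the whole Foxc1 list a Foxc2 peak overlapped 8.2%. The share of Foxc1 peaks with an overlapping Foxc2 peak was therefore near that of the list. The remaining peaks stood at widely differing distances from Foxc2. From the 26 Foxc1 summits to the nearest Foxc2 summit the distance ran from 0.044 to 2300 kb with a median of 627 kb, while the median over all Foxc1 peaks was 136 kb. These distances depend on the absence of Foxc2 peaks with which the genes were chosen, so they describe the genes and were not tested. Cald1 and Gata3 were farthest, and Itga8 and Ptn followed. Fhl2 and Des had Foxc2 summits at 63.9 to 155 kb from their peaks, and the other 2 Foxc1 peaks of Serpine2 had one at 28.8 and 109 kb, so that several of these were nearer than the list's median.

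**Figure D3:**
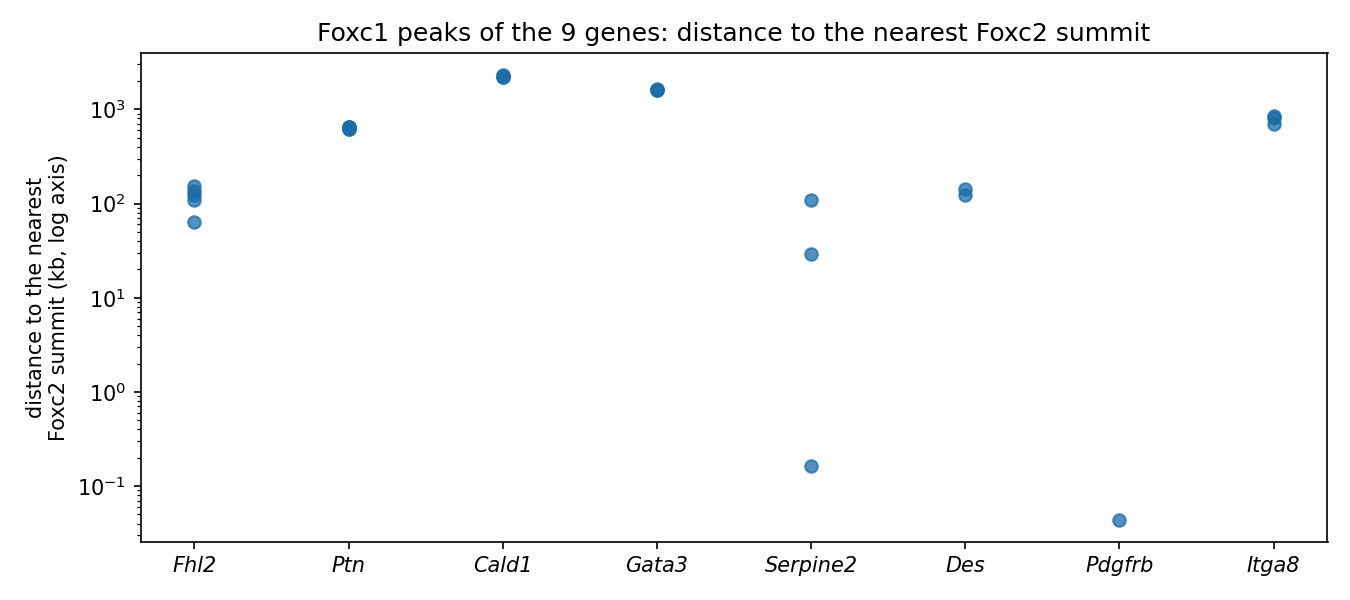
Distance in kb (vertical log axis) from each Foxc1 summit of the 8 genes that have one to the nearest Foxc2 summit, 1 point per Foxc1 peak. Only 1 peak of Serpine2 and the peak of Pdgfrb have a Foxc2 summit within 1 kb, and every peak of Cald1 and Gata3 is 1610 kb or more from one.

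Gene length moved with these counts. The median span of the 9 genes was 64.3 kb, against 17.2 kb over all coding genes. A Foxc1 summit was found at 21.4% of coding genes under 10 kb, 29.6% of those of 10 to 50 kb, 38.5% of those of 50 to 150 kb and 47.6% of longer ones. The matching shares for Foxc2 were 18.4, 24.6, 29.2 and 25.8%. Des lies in the first class, Gata3, Pdgfrb and Acta2 in the second, Fhl2, Serpine2 and Ptn in the third, and Itga8 and Cald1 in the last. In that last class 5.48% of genes had 3 or more Foxc1 summits and no Foxc2 summit. The share was 0.707% in the first class, 0.92% in the second (with Gata3) and 1.95% in the third (with Fhl2 and Ptn). The part of gene length in the members' counts was not tested.

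A wider list of 41 further mesangial and pericyte genes, drawn up from general knowledge and with earlier results of these lists known, gave lower shares than the 9 genes. Foxc1 summits were found at 16 of the 41 (39.0%) and Foxc2 summits at 5 (12.2%), against 29.3% and 23.2% of all coding genes. Only Foxd1 had both, 15 had Foxc1 alone, 4 had Foxc2 alone and 21 had neither. Of all 21887 coding genes, 12.5% had both, 16.7% had Foxc1 alone, 2331 genes had Foxc2 alone and 60.1% had neither. The median number of peaks was 0 for both antibodies, as it was over all coding genes, and the median span was 27.1 kb. The share of the wider list was thus above the background for Foxc1, though nearer to it than that of the 9 genes, and below it for Foxc2, where the 9 genes (22.2%) lay close to it.

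By role, surface proteins and markers had a Foxc1 summit at 7 of 13 genes and a Foxc2 summit at 1. For this group and those that follow, the background is again 29.3% of all coding genes for Foxc1 and 23.2% for Foxc2. The PDGF receptor gene Pdgfra had a single Foxc1 peak of fold 8.54, with its summit 0.046 kb downstream of the listed start, where the promoter window held none of the forkhead letters. Rgs5 had 2 peaks (folds up to 3.96), and the angiotensin receptor gene Agtr1a and the connexin gene Gja4 had 1 each (4.59 and 4.43). Mcam, an adhesion molecule gene, had 1 of fold 4.11 that was nearer to Rnf26. Kcnj8 and Abcc9, neighbours that encode both parts of a potassium channel of pericytes, rested on 1 and the same peak of fold 8.70, inside Abcc9. Cspg4, which encodes the pericyte proteoglycan NG2, had a Foxc2 peak alone (fold 3.95, 28.1 kb away and nearer to Snx33). Most members of this group that had a peak thus had a single one. Their counts cannot be set against those of the 9 genes, which were chosen with their counts in view. The median span also differed, at 34.8 kb in this group and 64.3 kb for the 9 genes.

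Among 7 contractile genes, Foxc1 summits were found at 1 and Foxc2 summits at another. Lmod1, a leiomodin of smooth muscle, carried Foxc1 (fold 5.29) at 0.168 kb beyond the end of its span. Tagln, which encodes the actin-binding transgelin, had a Foxc2 peak of fold 4.64 that lay 23.4 kb away, at promoter windows of Rnf214 and Pcsk7. Myh11, Cnn1, Myl9, Tpm1 and Tpm2 had none, like Acta2. A gene without a summit of either antibody was the usual case, at 60.1% of all coding genes.

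Among 7 transcription factor genes, Foxc1 summits were found at 4 and Foxc2 summits at 2. Ebf1, an early B-cell factor family gene, had 4 Foxc1 peaks, of fold up to 12.3. The homeobox gene Meis1 had 3, of fold up to 11.1, and Hopx had 3, of fold up to 6.80, and these 3 genes had no Foxc2 peak, as for Gata3. The spans of Ebf1, Meis1 and Hopx were 390, 139 and 28.1 kb, and the part of gene length in their counts was not tested. Foxd1, a forkhead gene of kidney stroma and podocytes, had 3 Foxc1 and 5 Foxc2 peaks, at folds of up to 9.65 and 12.3. Srf, the serum response factor gene that drives smooth muscle genes, had 2 Foxc2 peaks (folds up to 3.50) and no Foxc1 peak. Tbx18 and Myocd had neither.

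Among 10 genes for matrix and secreted proteins, Foxc1 summits were found at 3 and a Foxc2 summit at Npnt alone. Ccn2, the connective tissue growth factor gene, had 2 Foxc1 peaks of fold up to 13.0, the nearer at 0.913 kb from the span. Igfbp5 had 2 (fold up to 4.75) and Sfrp2 1 of fold 6.49. In the group of 4 signalling and respiratory chain genes, Cox4i2 had 2 Foxc1 peaks of fold up to 7.12, nearer to Id1 and Bcl2l1, and the pericyte receptor gene Notch3 had none. The growth factor gene Pdgfb, whose product is the ligand of Pdgfrb, had no peak of either antibody.

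**Figure D4:**
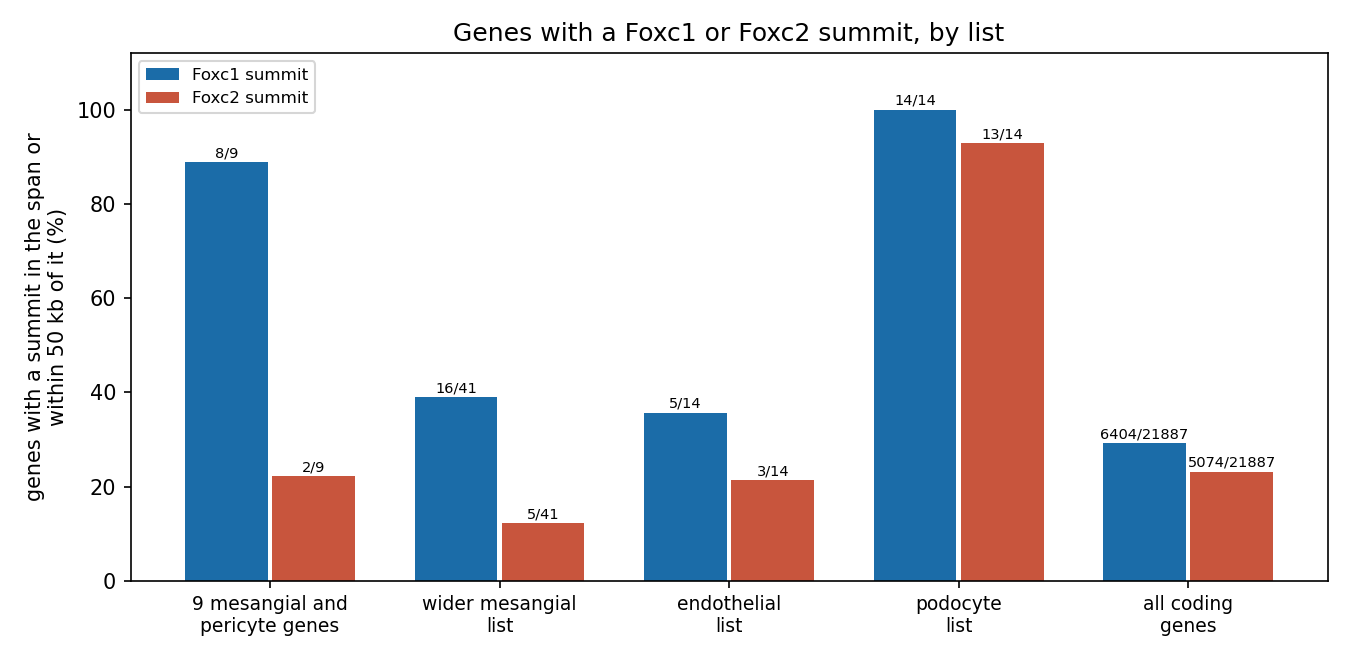
Share of genes (vertical axis, percent) with a Foxc1 summit (blue) or a Foxc2 summit (red) in the span or within 50 kb, with the counts above the bars, for the 9 genes, the wider mesangial list, endothelial and podocyte lists and all coding genes. The 9 genes stand at 8 and 2 of 9, the podocyte list at 14 and 13 of 14, and all coding genes at 29.3 and 23.2%.

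Lists of 14 podocyte and 14 glomerular endothelial genes, also drawn up with earlier results known, were counted beside them. Foxc1 summits were found at all 14 podocyte genes and Foxc2 summits at 13, so that 13 had both. Of the 14 endothelial genes, 5 had a Foxc1 summit (35.7%), 3 a Foxc2 summit (21.4%) and 1 had both. Over all coding genes the shares were 29.3%, 23.2% and 12.5%, so the endothelial list was near the background for each antibody. Among the 9 mesangial and pericyte genes, 2 had both. The podocyte genes had a median span of 73.2 kb, not far from the 64.3 kb of the 9 genes, but other properties of the lists were not matched and the differences between them were not tested.

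Counts like those of Fhl2 and Ptn, 5 Foxc1 summits and no Foxc2 summit, occurred at 16 coding genes in all, both of these included. By the rule for likeness, equal counts of both antibodies in these 2 libraries, the first 6 of the other 14 by their highest Foxc1 fold were Cyb5b (14.9), Numb (14), Unc5c (13.1), Syne2 (12.9), Fam214a (10.6) and Fam53b (10.3). All lay below the 25 of Fhl2, and Ptn stood at 12.2. The median span of the 16 was 156 kb, so long genes prevailed among them.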

How the data were processed

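Peak lists of 2 libraries, 1 per antibody and each 1 sample, were analysed. Per the submitters' processing notes, Bowtie2, MACS2 and the build mm10 were used. Their versions and settings, the control and any pooling: not given in the sources used here. Deposited for every peak are its fold (the authors' ratio over local background) and minus log10 of p-values and q-values (−log10), which reached at least 1.33 for q in both lists. The deposited score column was not used. Depth is unknown.

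Gene spans and promoter windows came from RefSeq (GRCm38.p6, the assembly of mm10), with windows for 8 of the 9 members and 28 of 41 wider genes. Summits were computed as peak start plus offset and assigned within 50 kb, with Python 3.11.15, numpy 2.4.6 and pandas 2.3.3. Overlap means 1 shared base pair. Peaks on other sequences (6 and 3) were left out. The assignment was tested on simulated data. No statistical test was run, since the members and lists were chosen with earlier results of these data known. Named were all members, every wider gene with a summit, nearer neighbours, and 6 genes of equal counts. Wider genes without peaks and the bases of Rgs5, Cald1 and Acta2 were picked after their values were seen. So were neighbours in reach but not nearer, such as Dgki and Speg.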

Additional observations from a re-analysis of the deposited data

How the results depend on the processing

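With 1 library per antibody, no replicate could be left out, and weaker sites can be missed at an unknown depth. Under all 8 alternatives no member had more Foxc2 than Foxc1 peaks and Acta2 had none. The members were chosen with their counts in view and all alternatives used the same peak lists, so this is no independent support. The 26 Foxc1 peaks became 14 with summits inside the span only, 17 with folds of 5 or more and 17 with a Foxc1 list cut to the 2878 strongest peaks, and 18 to 29 in the other 5. Members with a Foxc1 summit numbered 6 with spans only and 7 within 10 kb, since Serpine2 (in both) and Des (with spans only) dropped out, and 8 otherwise. Foxc2 peaks and members with one fell from 2 to 1, Pdgfrb alone, with spans only, within 10 kb, with a minus log10 q of 5 or more, with folds of 5 or more and with each summit given to its nearest gene. In the wider list, 16 genes with a Foxc1 summit became 8 with spans only, 10 within 10 kb and 31 within 100 kb, when the share of all coding genes was 9.53, 15.2 and 42.6%. The 5 with a Foxc2 summit became 2, 3 and 9 in these settings, 2 with the stricter q, 1 with folds of 5 or more and 3 by nearest gene, when the share of all coding genes was 7.58, 12.7, 33.6, 11.5, 3.9 and 10.1%. Within 5 kb of a gene end lay 6 of the 26 Foxc1 peaks in place of 2, against 25.6% of the list. Overlap between the antibodies stayed at 2 of the 26 peaks (7.69%) under 3 other definitions. Under these, the share over the whole Foxc1 list ran from 7.03% (summits within 200 bp) to 10.4% (peaks within 1 kb). The letters GTAAACA or ATAAACA alone gave the same 2 windows.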
